A study of Homo sapiens with 15 samples.

Results

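The comparison described here sets wild-type METTL14 against METTL14 with the R298P substitution, each returned to senescent human fibroblasts whose own METTL14 had been knocked down. It rests on 6 of 15 libraries, 3 per add-back, taken by the group names in the labels. The labels' genotype field calls these groups METTL14 knockout with wild-type or mutant METTL14 knock-in, whereas the treatment protocol names siRNA and lentivirus, and the protocol is followed here. IMR90, an established strain of fibroblasts from human fetal lung, was infected with a retrovirus expressing RAS, an oncogene that drives these cells into senescence. On day 4 the cells received siRNA against METTL14, the siRNA was given once more the day after together with lentivirus carrying wild-type or R298P METTL14, and RNA was taken 48 hours later. Both add-back groups therefore share the RAS retrovirus, the METTL14 siRNA and a lentivirus, and differ in the METTL14 sequence the lentivirus carries. The other groups of 3 were cells with RAS, METTL14 siRNA and no METTL14 insert (here knockdown cells), cells with RAS and the non-targeting siRNA (siControl RAS cells), and cells with the empty retrovirus and the non-targeting siRNA (control cells). The sources used here give neither the promoter of the lentivirus nor whether the 3 libraries of a group are separate cultures, so p-values and intervals measure a spread between libraries that may be technical.

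METTL14 is the partner of METTL3, the subunit that transfers the methyl group, in the nuclear writer complex of N6-methyladenosine (m6A), a methyl mark inside messenger RNAs. METTL14 helps to hold the RNA, and WTAP, VIRMA, ZC3H13, CBLL1 and RBM15 join as further subunits that place the complex in the nucleus and on its targets. R298P, a substitution known from tumours, lies near the RNA-binding groove of METTL14 and is known to lower the complex's activity on RNA. Fibroblasts in senescence stop dividing for good and release inflammatory cytokines and matrix-cutting enzymes, a state known as the SASP (senescence-associated secretory phenotype), and the comparison asks whether cells with the less active form express other levels of any gene than cells with the wild-type form. It is asked here in both directions: which genes differed, and for which well-measured genes the data exclude a difference of a stated size.

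The substituted residue is shown in the reference coding sequence, since it is the only designed difference between the groups. The substituted arginine is encoded in exon 10 of 11 of the METTL14 transcript of GENCODE 29, on the plus strand of GRCh38 at chr4:118705647-118705649. The stretch below covers codons 291 to 305 of 456, at chr4:118705626-118705670, with the codon that R298P changes in capitals. It is the reference sequence with the arginine codon CGT; which proline codon the lentivirus carries is not known here. The deposited counts were made on hg19, and no coordinates of that build are given.
METTL14 codons 291 to 305: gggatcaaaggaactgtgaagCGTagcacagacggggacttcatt

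Levels are counts scaled to the normalised size of each library (CPM), as mean ± SD over the 3 libraries of a group, and differences are log2, R298P minus wild type, unless named as a fold. In the 6 add-back libraries total counts were 4953042 to 6736809, so that 1 count stood for 0.148 to 0.202 CPM. A gene was called at an adjusted p under 0.05 (Benjamini-Hochberg, over 13516 genes tested) by the quasi-likelihood F test of edgeR, two-sided. Each difference also has a 95% interval from the same fit, and a size such as 1.5-fold is excluded where the whole interval lies within 1.5-fold up and 1.5-fold down; the smallest size a gene excludes is the end of its interval that lies farther from 0. Well measured means a mean of at least 10 CPM over the 6 libraries, which 8622 genes (63.8% of those tested) reached. On the first principal component of the 6 libraries (28.7% of the variance) the groups overlapped, at -14.32, -10.59 and 10.18 for wild type and -4.72, 2.19 and 17.25 for R298P. On the second (23% of the variance) they did not, at 0.04, 1.5 and 19.95 against -1.82, -9.55 and -10.11. The root mean square log2 distance was 0.29 to 0.383 between libraries of a group and 0.304 to 0.392 between the groups. The summed level of 16 fibroblast markers was 20970 to 22340 CPM in wild-type and 20400 to 21590 CPM in R298P libraries, whereas the summed epithelial (71.55 to 88.31 CPM), endothelial (37.02 to 50.57 CPM) and leukocyte (10.54 to 14.75 CPM) lists were low in both groups. In such bulk RNA, fewer cells of a type and less RNA per cell cannot be told apart. All 6 libraries were at 0 for 8 of 16 epithelial markers (CDH1, KRT5 and KRT14 among them), 4 of 10 endothelial markers (CDH5 among them) and 9 of 12 leukocyte markers. Other members of these lists were well measured. They were the epithelial KRT18, KRT19 and KRT8 (means of 39.5, 20.3 and 10.5 CPM), the endothelial TEK (33.3 CPM) and the leukocyte CD68 (10.4 CPM). The fibroblast markers LUM and PRRX1 had 29.4 and 30.8 CPM.

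The returned gene itself was not at the same level in the groups. METTL14 (ENSG00000145388) stood at 508.5, 563.6 and 564.2 CPM in the wild-type libraries (545 ± 32.0) and at 891.7, 906.6 and 1038 CPM in the R298P libraries (945 ± 80.4). The groups did not overlap, and R298P METTL14 was 1.73-fold higher (log2 difference 0.79, 95% interval 0.54 to 1.05, adjusted p = 0.0322). Knockdown cells had 9.35, 4.94 and 3.94 CPM and siControl RAS cells 22.0 ± 3.66 CPM, so both add-backs were far above the level of the cells' own gene as counted here. Gene counts do not separate the lentiviral from the cell's own transcript and do not show the substituted codon, so they check the add-back but not the substitution. Every difference given here thus goes with the substitution and with a higher METTL14 level at once, and their parts cannot be told apart. The call itself depended on the libraries in the fit: the adjusted p was 0.0726 to 0.343 without any 1 of the 6 add-back libraries, and 7.45e-08 without replicate 1 of the knockdown group, which had the highest METTL14 of its group. In a fit of the 6 add-back libraries alone it was 1.63e-07, and with the replicate number as a block 0.0875, which is not a call.

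Of the 13516 genes tested, 3 were called between the add-backs (0.0222%), METTL14 higher in R298P cells (1 gene, 0.0074%) and WTAP and RCAN1 lower (2 genes, 0.0148%). An unadjusted p under 0.05 was found for 665 genes (4.92%), and the libraries of the groups did not overlap for 1581 genes (11.7%). Without any 1 of the 6 add-back libraries 1 or 2 genes were called, and WTAP was among them each time.

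WTAP (ENSG00000146457), the adaptor that brings METTL3 and METTL14 to nuclear speckles, was lower with R298P. It stood at 263.3, 270.6 and 294.8 CPM in wild-type libraries (276 ± 16.5) and at 185.6, 180.2 and 200.5 CPM in R298P libraries (189 ± 10.5). Every R298P library lay below every wild-type library, and the log2 difference was -0.55 (SE 0.0776, 95% interval -0.71 to -0.39, adjusted p = 0.000549), which excludes no difference and also excludes 2-fold. The level was 263 ± 1.27 CPM in knockdown and 256 ± 21.5 CPM in siControl RAS cells, both close to that with wild-type METTL14, and 143 ± 6.86 CPM in control cells without RAS. The fall was thus seen with R298P METTL14 and not with the loss of METTL14, where the log2 difference was 0.04 (adjusted p = 0.807). Against the same knockdown libraries, WTAP differed by 0.07 with wild type (adjusted p = 0.939) and by -0.48 with R298P (adjusted p = 0.000228). Those comparisons share the knockdown libraries, and 0.621% and 1.09% of all genes tested were called in them. Over 14 alternative analyses the log2 difference of WTAP was -0.59 to -0.50, and it was called in each.

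The other members of the writer list were not called. METTL3 (ENSG00000165819), the catalytic subunit, was at 12.53, 15.42 and 8.83 CPM with wild type and 13.2, 11.75 and 12.17 CPM with R298P. The groups overlapped, the log2 difference was 0.01 (95% interval -0.58 to 0.59), and at this low level a difference of up to 1.51-fold remained within the interval. VIRMA, the largest scaffold of the complex, stood at 69.8 ± 5.71 against 73.7 ± 3.32 CPM (0.08, -0.16 to 0.31). ZC3H13, which helps to keep the complex in the nucleus, stood at 194 ± 13.6 against 180 ± 14.9 CPM (-0.11, -0.28 to 0.07). RBM15, an RNA-binding subunit, differed by -0.09 (-0.42 to 0.25), and CBLL1, a ubiquitin ligase of the complex, by -0.30 (-0.71 to 0.11). The methyltransferases that write m6A on other RNAs, METTL16 (small nuclear RNA) and METTL5 (ribosomal RNA), differed by -0.02 (-0.41 to 0.37) and -0.16 (-0.53 to 0.20), and ZCCHC4 and PCIF1 were under 10 CPM. Of 9 well-measured writers 8 excluded 2-fold, METTL14 being the exception, and 5 excluded 1.5-fold (VIRMA, ZC3H13, RBM15, METTL16 and METTL5). Both enzymes that remove m6A, FTO and ALKBH5, were under 10 CPM. Among the proteins that read it, none of 14 well-measured members was called, 13 excluded 2-fold and 11 excluded 1.5-fold. Beside these counts of writers and readers, 96.8% of all well-measured genes excluded 2-fold and 71.4% excluded 1.5-fold. Of all genes tested 0.0222% were called, so the reader counts by themselves set the readers apart from no other genes. HNRNPC, an RNA-binding protein sensitive to m6A-dependent structure, had one of the tightest limits, 511 ± 16.2 against 509.6 ± 22.3 CPM, which excluded 1.09-fold. The smallest unadjusted p of that list was 0.00209, for the reader YTHDF1, at 57.2 ± 2.57 against 42.5 ± 2.45 CPM (log2 difference -0.42, adjusted p = 0.669); it was chosen after its values were seen.

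RCAN1 (ENSG00000159200), a regulator of the phosphatase calcineurin, was the other gene lower with R298P. It stood at 712.8, 738.3 and 750.1 CPM in wild-type libraries (734 ± 19.1) and at 554.2, 594.2 and 573.2 CPM in R298P libraries (574 ± 20.01), with no overlap. The log2 difference was -0.35 (SE 0.0636, 95% interval -0.48 to -0.23, adjusted p = 0.0225), which excludes 1.5-fold. Knockdown had raised RCAN1 from 540 ± 28.5 to 745 ± 49.9 CPM (log2 difference 0.46, adjusted p = 1.05e-06). With wild-type METTL14 it differed from the knockdown level by -0.02 (adjusted p = 0.989) and with R298P by -0.38 (adjusted p = 0.000486), so the R298P libraries lay at 554.2 to 594.2 CPM beside 515.9 to 571.3 CPM in siControl RAS libraries. The call was lost without any 1 of the 6 add-back libraries (adjusted p = 0.0821 to 0.202), while the difference stayed at -0.38 to -0.33.

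**Figure D1:**
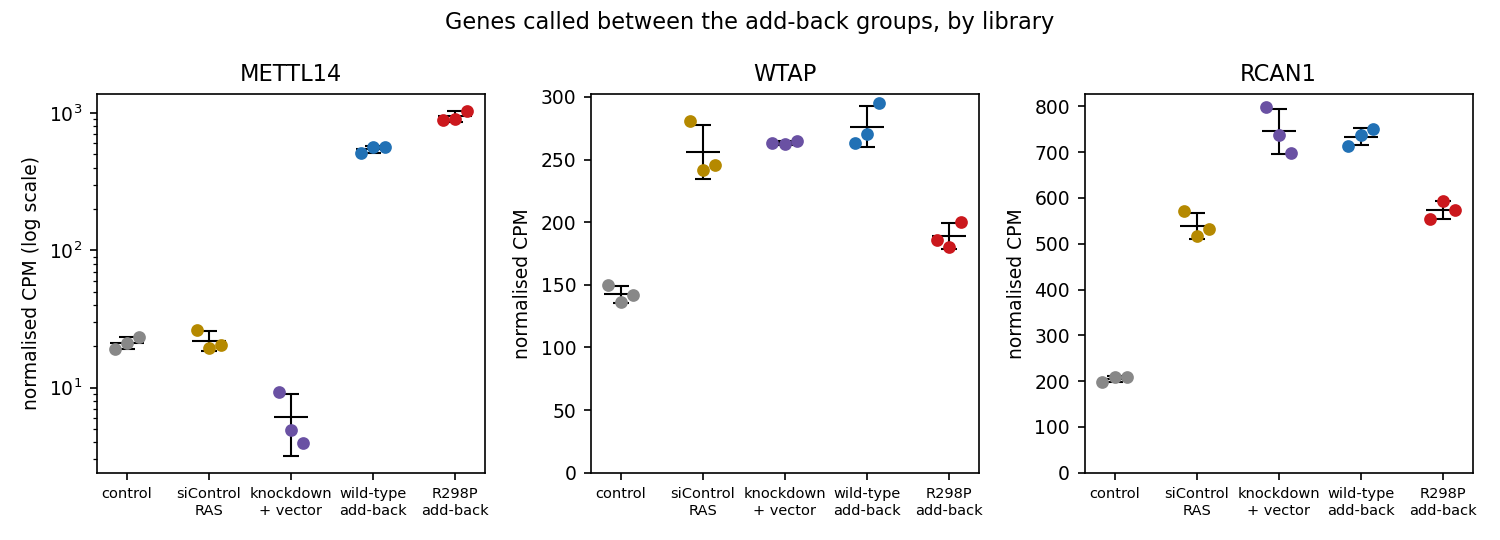
Normalised CPM of METTL14 (log scale), WTAP and RCAN1 in each library of the 5 groups; points are libraries, bars the group mean ± SD (n = 3). R298P libraries lie at 180.2 to 200.5 CPM for WTAP, below the wild-type, knockdown and siControl RAS libraries and above the control libraries, and at 554.2 to 594.2 CPM for RCAN1, below the knockdown and wild-type libraries.

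The genes ranked next by p were not called, and are named here because of that rank, after their values were seen. RGS5, which speeds the shut-off of G protein signals, stood at 29.71, 34.12 and 28.37 CPM with wild type and at 50.73, 46.17 and 51.3 CPM with R298P (log2 difference 0.68, 95% interval 0.38 to 0.97, adjusted p = 0.108). The groups did not overlap, and both lay between the knockdown (15.9 ± 2.79 CPM) and siControl RAS (213 ± 19.4 CPM) levels. DCBLD1 stood at 112 ± 3.30 against 146 ± 6.51 CPM (0.39, adjusted p = 0.108). CHAC1, a glutathione-degrading enzyme of the ATF4 response, stood at 159 ± 18.1 against 212 ± 7.002 CPM (0.42, adjusted p = 0.179). AKR1B1, which reduces glucose to sorbitol, stood at 3086 ± 130.3 against 2598 ± 152 CPM (-0.25, adjusted p = 0.108). PAPPA, a protease of insulin-like growth factor binding proteins, differed by -0.22 and the small nucleolar RNA SNORD13 by -0.47 (both adjusted p = 0.179). In each of these 6 genes the groups did not overlap, as in 11.7% of all genes tested. They were picked for a small p in the same libraries, so this outcome was largely set by the choice. DESeq2, which called 12 genes, called all 6 of them, and limma-voom, which called 5, called AKR1B1 and PAPPA. With the replicate number as a block AKR1B1 was called (adjusted p = 0.0469).

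Most well-measured genes could be given a limit. The 95% interval excluded a 2-fold difference for 8343 of 8622 well-measured genes (96.8%), 1.5-fold for 6159 (71.4%) and 1.2-fold for 1399 (16.2%). The median gene excluded 1.35-fold, and the genes at the 10th and 90th percentile excluded 1.17-fold and 1.74-fold. The fitted difference itself was at least 1.5-fold for 74 genes and at least 2-fold for 10, among them a gene with 0 counts in every wild-type library, for which no fold is given. The median size was 0.10. Fitted values were higher with R298P for 4221 genes and lower for 4401, with a median of -0.00365. With 2 one-sided tests per gene, adjusted over all genes tested, 8394 genes excluded 2-fold and 6032 excluded 1.5-fold, but only 39 excluded 1.2-fold, so at 1.2-fold the single intervals are not a list of genes that stands up to the number of genes tested.

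The same fit shows what such limits look like where many genes moved. Between knockdown and siControl RAS cells 2100 genes were called (15.5%), and the interval reached as far to each side as between the add-backs, by a median of 0.32 in both. There, 7510 of the same 8622 genes (87.1%) excluded 2-fold, 4514 (52.4%) excluded 1.5-fold and 591 (6.85%) excluded 1.2-fold. Fitted differences of at least 1.5-fold numbered 1027, against 74 between the add-backs, and those of at least 2-fold 272, against 10. The knockdown comparison shares no library with the add-back comparison, but both use the same spread per gene, estimated from all 15 libraries. A small spread makes a gene easier to call in the knockdown and also narrows its interval between the add-backs.

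**Figure D2:**
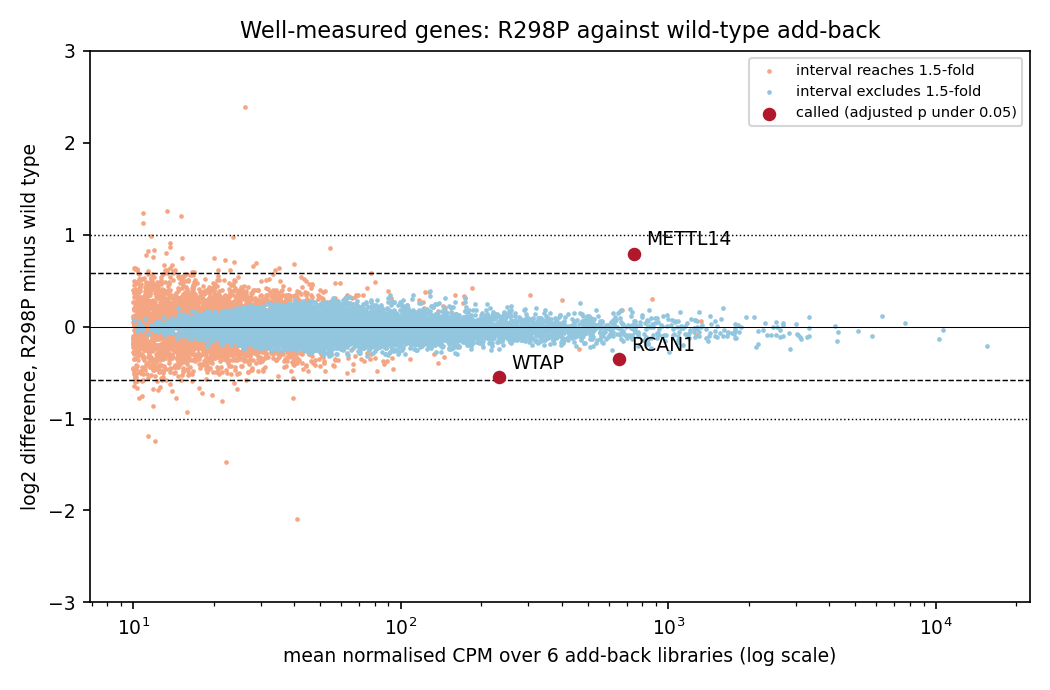
Fitted log2 difference, R298P minus wild type, against the mean normalised CPM over the 6 add-back libraries (log scale) for 8621 well-measured genes; the gene with 0 counts in every wild-type library is not drawn. Blue points exclude 1.5-fold, orange points do not, red points are the 3 called genes, and dashed and dotted lines mark 1.5-fold and 2-fold.

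How small a difference could be excluded followed the level of the gene. Of 3239 genes at 10 to 30 CPM, 92.7% excluded 2-fold, 36.3% excluded 1.5-fold and none excluded 1.2-fold. At 30 to 100 CPM the shares were 99%, 89.4% and 5.77% of 3274 genes, and at 100 to 300 CPM 99.6%, 97.4% and 49.9% of 1516 genes. Of 593 genes at 300 CPM or more, 99.2% excluded 2-fold, 97.8% excluded 1.5-fold and 76.6% excluded 1.2-fold. The interval reached by a median of 1.39-fold to each side in the lowest of these ranges and 1.1-fold in the highest. Under 10 CPM limits were fewer: 31.9% of 2650 genes at 3 to 10 CPM excluded 2-fold and 0.113% excluded 1.5-fold, and of 2244 genes under 3 CPM 0.178% excluded 2-fold.

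**Figure D3:**
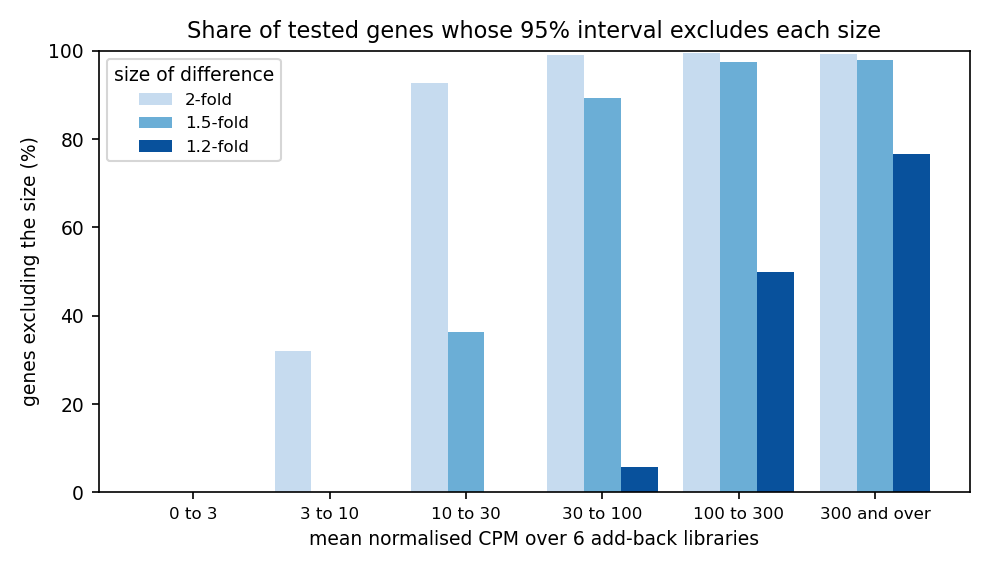
Share of tested genes (%) whose 95% interval for R298P against wild type excludes 2-fold, 1.5-fold or 1.2-fold, by mean normalised CPM over the 6 add-back libraries. The share excluding 1.5-fold climbs from 36.3% at 10 to 30 CPM to 97.8% at 300 CPM or more.

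The genes called between knockdown and siControl RAS cells were then asked for the same limits. Over all genes tested 2100 were called there, and 84 (0.621%) between wild-type add-back and knockdown cells. Whether the genes of the first set respond to METTL14 itself was not tested. Of 1833 well-measured genes called between knockdown and siControl RAS cells, 2 were called between the add-backs (METTL14 and RCAN1). Among them 1813 (98.9%) excluded 2-fold, 1554 (84.8%) excluded 1.5-fold and 554 (30.2%) excluded 1.2-fold. Their median level was 79.3 CPM, against 42.3 CPM over all well-measured genes, and within ranges of level the shares were nearer: 43.2% of them against 36.3% of all genes excluded 1.5-fold at 10 to 30 CPM, 91.4% against 89.4% at 30 to 100 CPM, and 99.2% against 97.4% at 100 to 300 CPM. Over all genes tested knockdown raised 7.47% and lowered 8.06%. Of 898 well-measured genes that it raised, 782 (87.1%) excluded 1.5-fold between the add-backs, and of 935 that it lowered, 772 (82.6%) did. For 1603 of the 1833 genes (87.5%) the interval excluded a difference as large as the fitted knockdown change in either direction. Among the 264 that knockdown changed by at least 2-fold, this held for 261 (98.9%). That count takes the fitted knockdown change as exact, without its own error. A larger change is also more easily excluded, so the share among the 264 was largely set by their choice.

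Among the 18 senescence genes chosen for description whether or not they differed, none was called between the add-backs, where 0.0222% of all genes tested were called, so the count by itself sets them apart from no other genes. Of these, 15 were well measured, 14 excluded 2-fold and 13 excluded 1.5-fold (AREG and CCL2 did not). Over all well-measured genes the shares were 96.8% and 71.4%. All 12 that were well measured and called in the knockdown excluded a difference as large as their knockdown change, which ranged from 1.28-fold to 15.9-fold. In these 12, wild type itself differed from knockdown cells by a log2 of -0.26 (MKI67) to 0.77 (CXCL1). Only IL11 was called there (0.73, adjusted p = 2.95e-06), beside 0.621% of all genes tested. R298P differed from knockdown cells by -0.48 (MKI67) to 0.98 (AREG). There IL11 (0.47, adjusted p = 0.00294), IL1B (0.71, adjusted p = 0.024) and AREG (adjusted p = 0.00154) were called, beside 1.09% of all genes tested. With either add-back the difference in each gene was smaller in size than the knockdown change. The limits therefore do not show that either add-back restored these genes.

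IL1B (ENSG00000125538), an upstream cytokine of the SASP, stood at 216.8, 225.2 and 260.6 CPM with wild type and at 251.3, 252.0 and 272.1 CPM with R298P. The groups overlapped, and the log2 difference was 0.14 (95% interval -0.16 to 0.44), which excludes 1.36-fold where knockdown had changed IL1B by -2.14. IL1A, its companion at the head of the same cascade, stood at 45.47, 53.13 and 43.03 against 44.05, 51.45 and 40.75 CPM (-0.06, -0.37 to 0.26; knockdown -1.81). CXCL8, a neutrophil chemokine, stood at 417.5, 367.1 and 396.3 against 421.7, 416.4 and 371.8 CPM (0.04, -0.32 to 0.39; knockdown -1.87). CXCL1, of the same chemokine family, stood at 857 ± 32.7 against 792 ± 128 CPM (-0.11, -0.46 to 0.23; knockdown -1.75). In all 4 the knockdown change was larger than any difference between the add-backs that the interval holds.

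IL6 was under the 10 CPM minimum, at 8.49, 10.18 and 10.52 against 11.93, 6.47 and 4.46 CPM, and its interval (-0.97 to 0.30) excluded 1.96-fold at best. CCL2, a monocyte chemokine, stood at 146.3, 115.2 and 104.3 against 114.0, 114.3 and 56.16 CPM, and R298P replicate 3 was the lowest library. Its interval (-1.04 to 0.33) reached 2-fold, so no limit at the stated sizes can be given for CCL2 despite its level. IL11, a cytokine of the IL6 family, stood at 113.6, 96.83 and 107.5 against 88.42, 76.66 and 100.6 CPM. Its interval lay below 0 (log2 difference -0.26, -0.44 to -0.08) but it was not called among 13516 genes (unadjusted p = 0.00655, adjusted p = 0.835), and it excluded 1.36-fold where knockdown had changed it by -3.67. AREG, a ligand of the epidermal growth factor receptor, stood at 68.1, 60.01 and 63.32 against 92.4, 68.82 and 81.1 CPM, the one gene of the 15 well measured whose groups did not overlap, as 12.4% of all well-measured genes did not. Its log2 difference was 0.34 (0.03 to 0.65, unadjusted p = 0.0319, adjusted p = 0.98), which excludes 1.57-fold; knockdown had changed it by -3.99.

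Among the proteases and arrest genes, MMP1, an interstitial collagenase, stood at 676.6, 662.6 and 752.9 against 726.1, 753.2 and 794.6 CPM (0.12, -0.01 to 0.25), which excludes 1.19-fold; knockdown had changed it by -0.94. MMP3, stromelysin, stood at 174.0, 189.3 and 283.2 against 204.8, 225.0 and 273.7 CPM (0.12, -0.31 to 0.55). PTGS2, the inducible cyclooxygenase, stood at 128 ± 11.3 against 141 ± 6.73 CPM (0.14, -0.03 to 0.31; knockdown -3.04). CDKN1A, the p21 inhibitor of cyclin-dependent kinases, stood at 1422, 1424 and 1533 against 1370, 1362 and 1454 CPM (-0.07, -0.18 to 0.05), the tightest limit of the 18 at 1.13-fold. CDKN2A, which encodes p16, differed by -0.06 (-0.29 to 0.16) and CDKN2B, its neighbour encoding p15, by -0.01 (-0.38 to 0.36). MKI67, a marker of dividing cells that knockdown had raised (2.00), stood at 33.75, 38.91 and 29.69 against 24.33, 29.13 and 35.28 CPM (-0.22, -0.53 to 0.09). LMNB1, a nuclear lamin lost in senescence, and CCNA2, cyclin A, were under 10 CPM and excluded 1.85-fold and 1.72-fold.

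**Figure D4:**
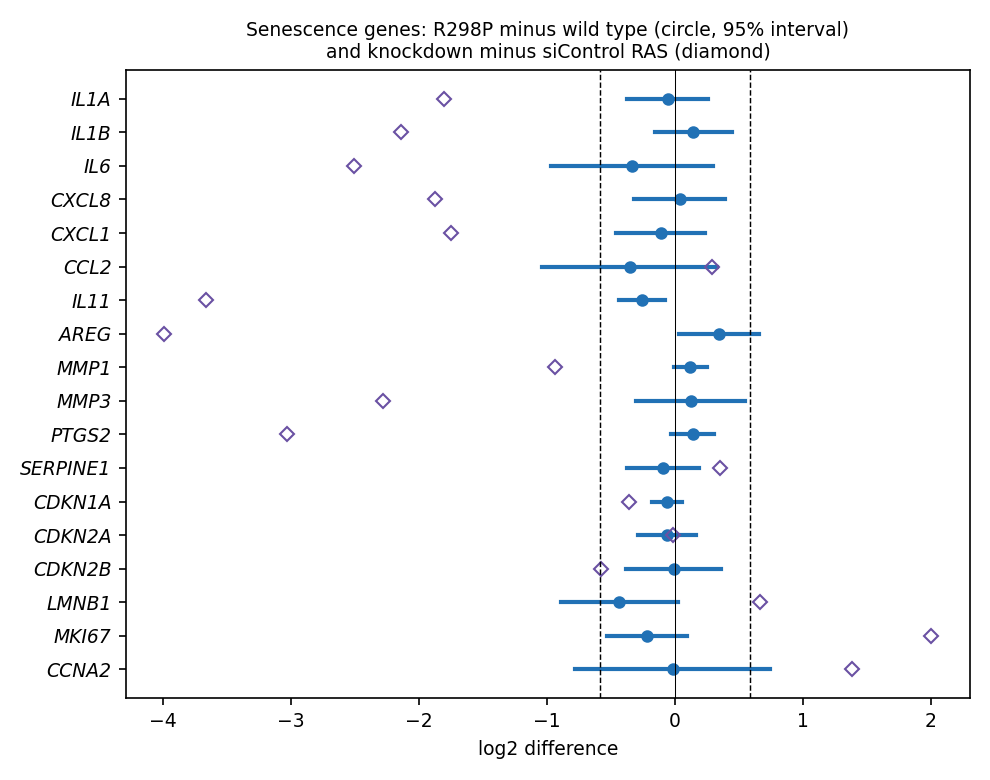
Log2 difference for 18 senescence genes: circles and bars are R298P minus wild type with the 95% interval, open diamonds are knockdown minus siControl RAS, and dashed lines mark 1.5-fold. The bars of IL1A, IL1B, CXCL8, CXCL1, IL11, AREG, MMP1, MMP3 and PTGS2 all lie to the right of their diamonds at -3.99 to -0.94.

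The 10 well-measured genes that knockdown lowered most (5.77-fold to 15.9-fold) all excluded 2-fold between the add-backs, and 8 excluded 1.5-fold, RGS5 and AREG being the exceptions. Of all well-measured genes 96.8% excluded 2-fold and 71.4% excluded 1.5-fold. Among the 10 lowered genes CSF3, a granulocyte growth factor, stood at 33.7 ± 5.99 against 35.4 ± 5.27 CPM (0.06, -0.24 to 0.37), and CXCL6 at 50.6 ± 2.66 against 47.1 ± 3.797 CPM (-0.10, -0.42 to 0.22). RGS2, another regulator of G protein signals, differed by 0.08 (-0.24 to 0.41), and NR4A2, a nuclear receptor, by 0.16 (-0.24 to 0.57). Of the 10 that knockdown raised most (3.68-fold to 6.55-fold), 9 excluded 2-fold and 3 excluded 1.5-fold, VCAM1, OXTR and MKI67. VCAM1, an adhesion molecule, stood at 35.5 ± 3.55 against 32.4 ± 4.02 CPM (-0.13, -0.56 to 0.31). MYBL2, a cell-cycle transcription factor, did not exclude 2-fold (14.5 ± 7.05 against 10.7 ± 0.773 CPM), and wild-type replicate 3 was its highest library at 22.36 CPM. All 20 excluded a difference as large as their knockdown change. They were picked for the size of that change, and a larger change is more easily excluded, so this outcome was largely set by the choice.

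Across 20 lists of pathways and gene families, 490 distinct well-measured members were found, of which 2, METTL14 and WTAP, were called (0.0222% of all genes tested were). Of the members, 476 (97.1%) excluded 2-fold, 394 (80.4%) excluded 1.5-fold and 149 (30.4%) excluded 1.2-fold. Over all well-measured genes the shares were 96.8%, 71.4% and 16.2%. The members' median level of 108 CPM was above that of all well-measured genes, 42.3 CPM, and these shares rise with level. List medians of the log2 difference over well-measured members ran from -0.09 to 0.09, beside -0.00365 over all well-measured genes.

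In the secretory lists, 10 of 14 SASP cytokines and chemokines, 20 of 26 growth factors and binding proteins and 13 of 16 proteases and their regulators excluded 1.5-fold, and none was called. Beside the counts of this paragraph, 71.4% of all well-measured genes excluded 1.5-fold, and 0.0222% of all genes tested were called. In the secretory lists IGFBP5, which binds insulin-like growth factors, had one of the tightest limits, 7557 ± 232 against 7751 ± 115 CPM (0.04, -0.06 to 0.13). PLAU, the urokinase protease, had the widest, at 397.7, 407.2 and 223.8 against 461.3, 442.1 and 183.1 CPM, where replicate 3 was the lowest in both groups. Of the transcription programmes upstream of the SASP, 18 of 19 NF-kB and C/EBP genes excluded 1.5-fold. NFKBIA, the inhibitor that NF-kB itself induces, stood at 584.6, 550.0 and 545.6 against 500.0, 479.0 and 470.4 CPM without overlap (-0.21, -0.34 to -0.08, adjusted p = 0.671). It excluded 1.27-fold and was not called. Of interferon-stimulated genes 14 of 20 excluded 1.5-fold, with IFI6 at 365 ± 19.3 against 390 ± 43.7 CPM (0.09, -0.04 to 0.23). ISG15, a ubiquitin-like protein, had wide spread (38.3 ± 15.7 against 52.9 ± 14.1 CPM) and did not exclude 2-fold. For the feedback and target genes of the MAPK pathway, in which RAS acts, the count was 13 of 20. FOS, an immediate early transcription factor named after its values were seen, stood at 18.2 ± 3.22 against 10.6 ± 1.35 CPM (-0.77, -1.31 to -0.24, unadjusted p = 0.00591, adjusted p = 0.83), so neither no difference nor 2-fold can be set aside for it after adjustment.

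In the lists of the arrested cell, 22 of 29 CDK inhibitors and p53 targets, 9 of 12 mitosis genes, 8 of 15 DNA replication genes and 18 of 21 chromatin and nuclear envelope genes excluded 1.5-fold, and none was called. Beside the counts of this paragraph, 71.4% of all well-measured genes excluded 1.5-fold and 16.2% excluded 1.2-fold. Of all genes tested 0.0222% were called. Mitosis and replication genes were mostly low in these arrested cells: 12 of 38 and 15 of 43 tested members were well measured. TOP2A, topoisomerase II alpha, excluded sizes above 1.204-fold, and HMGA2, a chromatin protein, excluded 1.15-fold. Of 34 well-measured extracellular matrix genes 33 excluded 1.5-fold and 19 excluded 1.2-fold, with COL1A1 at 10780 ± 349.8 against 10490 ± 98.8 CPM (-0.04, -0.13 to 0.06). Of 22 contractile and YAP/SRF genes 20 excluded 1.5-fold and 14 excluded 1.2-fold, with CALD1, an actin-binding protein, excluding 1.09-fold. Of all genes at 100 to 300 CPM, 97.4% excluded 1.5-fold and 49.9% excluded 1.2-fold. At 300 CPM or more the shares were 97.8% and 76.6%. Whether any list differs from genes of its level was not tested. By adjusted one-sided tests only 39 of all well-measured genes excluded 1.2-fold. The counts at 1.5-fold were 25 of 30 for glycolysis and hypoxia, 64 of 77 for cytosolic ribosomal proteins, 37 of 43 for the respiratory chain, 24 of 28 for lysosomes, 19 of 25 for the unfolded protein and ATF4 responses and 14 of 19 for cholesterol synthesis.

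**Figure D5:**
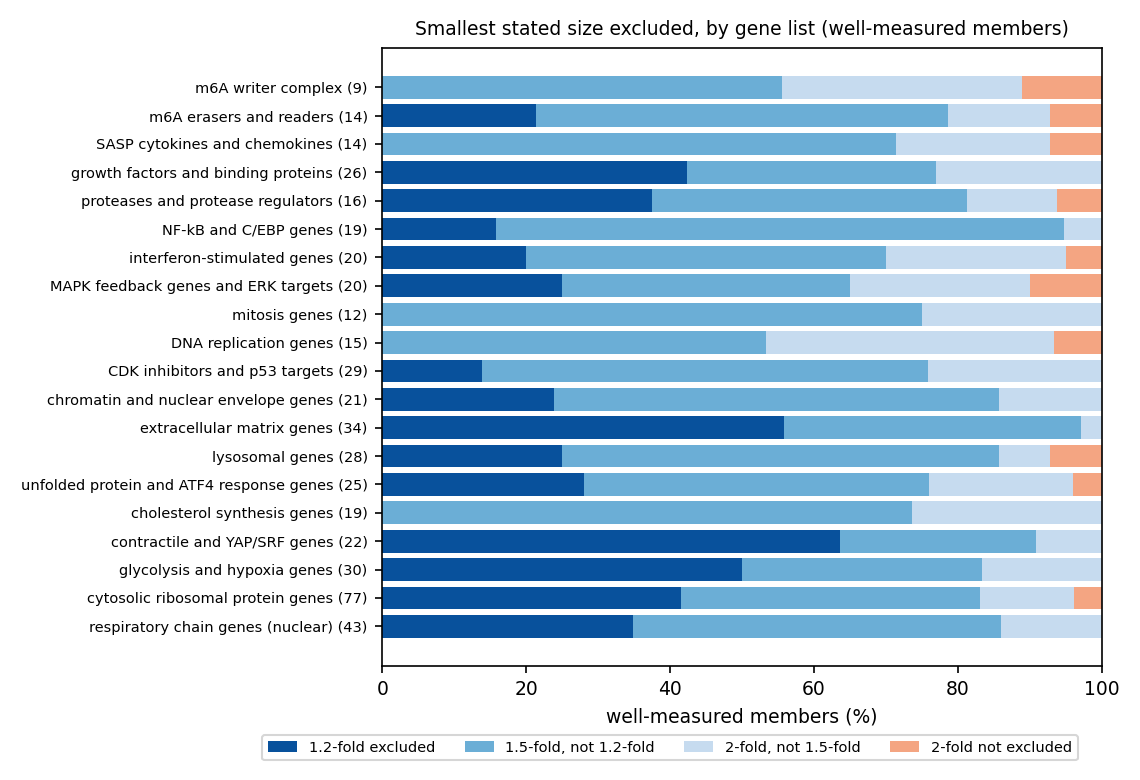
Share (%) of each list's well-measured members (number in brackets) by the smallest stated size their 95% interval excludes, R298P against wild type. Orange marks members that do not exclude 2-fold, METTL14 among the writers. Of the members, 33 of 34 extracellular matrix genes and 18 of 19 NF-kB and C/EBP genes exclude 1.5-fold. Of all well-measured genes 71.4% do, and 97.8% of genes at 300 CPM or more.

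For 279 well-measured genes the data did not exclude 2-fold, and 278 of them were not called. The interval of 67 of these 278 did not hold 0, without passing the test over all genes, and 1 of the 67, ENSG00000272962, lay wholly beyond 1.5-fold (log2 difference -1.47, 95% interval -2.32 to -0.61, unadjusted p = 0.00252, adjusted p = 0.694). An interval that reaches 2-fold goes more often with a large fitted difference, so the count of 67 was partly set by the choice. Over all genes tested 4.92% had an unadjusted p under 0.05. Of the 279, 84.6% were under 30 CPM (36% of the genes that excluded 2-fold), and 6.81% were pseudogenes (0.839%). The 5 largest fitted differences that were not called belong here. ENSG00000229874 had 0 counts in every wild-type library and 0, 351 and 288 counts with R298P, EEF1A1P5, a processed copy of a translation elongation factor gene, had 53, 55 and 34 against 435, 94 and 231 counts, and ENSG00000236933 had 313, 433 and 386 against 283, 0 and 0. ENSG00000272962 had 314, 117 and 92 against 69, 70 and 61 counts, and PCDHGA12, of a gene cluster that shares its 3′ exons, had 24, 75 and 39 against 73, 148 and 98. Of these 5, ENSG00000272962 was called by DESeq2 and with no expression filter, ENSG00000229874 by DESeq2, and ENSG00000236933 without R298P replicate 1. EEF1A1P5 and PCDHGA12 have near-identical relatives, and whether tags were shared with them was not tested.

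Level was not the limit for 11 genes at 100 CPM or more that did not exclude 2-fold: METTL14, ATP6V0C, RPS18, PLAU, SDF4, PCOLCE, RBMX, PALM2AKAP2, PSMD14, PHPT1 and CCL2. Besides METTL14, their groups overlapped. ATP6V0C, a subunit of the vacuolar proton pump, stood at 822.9, 317.0 and 1194 CPM with wild type and at 940.5, 800.5 and 1131 CPM with R298P. RBMX, a splicing factor that binds m6A-modified RNA, stood at 138.6, 99.52 and 223.2 against 153.6, 131.3 and 220.8 CPM. In 8 of the 11, METTL14 included, replicate 3 was the highest library in both groups, and in 7 of these 8 wild-type replicate 2 was the lowest of its group. In those 7 (ATP6V0C, RPS18, SDF4, PCOLCE, RBMX, PSMD14 and PHPT1) replicate 3 was the highest library in all 5 groups. PLAU and CCL2 had replicate 3 as the lowest library in both groups.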

How the data were processed

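QuantSeq 3′ end libraries of 15 samples were used, of which 6 form the comparison. Deposited values are counts per Ensembl gene, whole numbers and not normalised, for 57736 genes; per the submitters' processing notes, the tools Bowtie2 and RSEM 1.2.12 and the build hg19 were used, in roles not named. The sources used here do not give the annotation, the strand setting or any rounding. Since each transcript is tagged near its 3′ end, long genes gain no counts by length. Symbols were found for 52301 IDs (90.6%), for names only.

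All 15 libraries were fitted together (1 coefficient for each of 5 groups; edgeR 4.0.16, R 4.3.3, TMM, default expression filter, robust quasi-likelihood F test, 10 residual degrees of freedom), which left 13516 genes with 99.8% of the counts. The biological coefficient of variation was 16.7%. Standard errors came from the fitted weights and the quasi-dispersion, and intervals from t on the total degrees of freedom (median 33.4). The code was checked on simulated data. Libraries of a group differed by more than sampling noise (chi-square per degree of freedom 3.52 to 6.31), so none was a copy. Deviations of same-numbered libraries correlated at 0.0486, 0.0709 and 0.186, and those of unlike-numbered libraries at -0.135 to 0.0825. The highest value was that of the replicate 3 libraries, and what these share was not tested. The main fit treated numbers as unpaired. An exact permutation test of 3 against 3 cannot go below p = 0.1 and was not used. limma 3.58.1, DESeq2 1.42.0, other scalings, other filters, a replicate block and left-out libraries were tried as alternatives.

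Named genes were the m6A writers, every called gene, 18 senescence genes, the widest and narrowest interval of each list, the 10 largest knockdown changes each way and the 5 largest uncalled differences; some are left out of the text, and others named are marked as chosen after their values were seen. The comparison, the lists (688 genes in 24 lists, 7 with no ID) and the rule were chosen with earlier results of these data known.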

Additional observations from a re-analysis of the deposited data

How the results depend on the processing

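The counts of genes excluding 2-fold and 1.5-fold, and of knockdown-called genes excluding 1.5-fold, stayed within 1.5 times the reported count in every alternative run. Without 1 of the 6 add-back libraries, 1.5-fold was excluded for 5372 to 5537 well-measured genes, against 6159. Among knockdown-called genes, called anew in each fit, it was excluded for 1388 to 1472, against 1554. Without replicate 1 of the knockdown group these counts were 6272 and 1324. The count at 1.2-fold, 1399, was less stable. It was 911 to 1021 without 1 add-back library, 1531 without replicate 1 of the knockdown group and 39 by adjusted one-sided tests. The number of genes called was 3 with either other scaling, 14 with no expression filter, 5 with the 6 add-back libraries alone, 5 with limma-voom, 12 with DESeq2, and 1 to 3 without 1 library; METTL14, WTAP and RCAN1 were among those called in the first 6 of these, and WTAP in all. With the replicate number as a block 3 genes were called, all lower (WTAP, RCAN1 and AKR1B1), METTL14 had an adjusted p of 0.0875, and 8360, 6222 and 1498 genes excluded 2-fold, 1.5-fold and 1.2-fold. Of 87 named genes followed at 1.5-fold, 67 stayed on the same side in all 14 fits: 34 of the 44 that excluded it and 33 of the 43 that did not. Depth limits the comparison below 10 CPM, where 31.9% of genes at 3 to 10 CPM excluded 2-fold.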
